A study of Mus musculus with 2 samples.

Results

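FAM-named genes are protein-coding genes whose symbol stands for "family with sequence similarity" and a number. Such a name is given when genes resemble each other in sequence and nothing more was known of them, so genes with the same number are similar in sequence, while a different number says nothing by itself about how genes are related. The genes were chosen by name alone, as the rows of the deposited FMRP table whose symbol begins with *Fam* and a number, and 53 of 4788 listed genes met this rule. They carry 37 different FAM numbers. The description given in the table names such a family for 52 of the 53, and *Fam193a* is the exception.

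The libraries came from testes of adult wild-type mice. An aliquot of the testicular lysate was kept as input, and the RNA that precipitated with an anti-FMRP antibody from such lysate formed the FMRP RIP (RNA immunoprecipitation followed by sequencing). Each group holds 1 library, so no difference below has a replicate check and no test was made. How many animals gave the material is not stated in the labels, and an IgG library was not analysed here. Whole testis mixes germ cells of all stages with somatic cells, so fewer cells of a type and less RNA per cell cannot be told apart.

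The table lists only genes that the authors had called higher in the FMRP RIP. The direction of every value is therefore fixed by that selection, and only sizes are described. Levels are CPM, the reads of a gene relative to all reads of that library, without correction for transcript length, so they are compared between libraries and not between genes. The library totals recovered from the CPM steps were 30849871 reads for the input library and 36506932 for the FMRP RIP. The input floor of 3 reads equals 0.0972 CPM, and no FAM-named gene was at or under it. Of 24 marker genes of germ cells fixed for this work, 7 were listed (among them *Sycp1*, *Tdrd1* and *Akap4*). Others, such as *Sycp3*, *Ddx4*, *Dazl* and *Prm1*, were not. Of 16 markers of Sertoli, Leydig, peritubular and blood cells, 0 were listed. Over all protein-coding genes of the RefSeq annotation, 21.3% were. These counts say only which markers were called higher, and nothing about the cell types in either library.

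FMRP is the RNA-binding protein lost in fragile X syndrome. It associates with ribosomes on messenger RNA and is known mainly as a repressor of translation in neurons, and it is also abundant in testis. Spermatids depend on stored messenger RNA, because transcription ends while the acrosome and the flagellum are still being built. Several FAM families act in these steps. The *Fam71* genes, renamed GARIN in later annotation, include some for Golgi-associated proteins that bind the small GTPase RAB2. Some members, not all, take part in acrosome formation. Other FAM names cover proteins of cilia, centrioles and sperm microtubules.

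The FAM-named genes had a median of 23.7 CPM in the input, from 0.194 CPM for *Fam124a* to 193 CPM for *Fam71f2*. In the FMRP RIP the median was 72.5 CPM, from 2.22 CPM for *Fam124a* to 510.3 CPM for *Fam71d*. Together they held 0.167% of the input reads (exact 95% interval 0.166 to 0.169) and 0.600% of the FMRP RIP reads (interval 0.598 to 0.603). The higher share follows from a table of genes called higher, and among the reads of the listed genes alone their share was 1.18% in the input and 1.09% after precipitation. Enrichment is given on a log2 scale, as FMRP RIP over input with 1 CPM added to each (the log2 ratio below), a scale that compresses low genes, and for single genes as the plain ratio of CPM with an exact Clopper-Pearson 95% interval from the reads. Reads without molecular identifiers are not independent molecules, so all intervals cover counting error only.

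The median log2 ratio of the 53 genes was 1.30 (quartiles 0.95 and 1.97), beside 1.35 (quartiles 0.92 and 2.0) over all listed genes. A log2 ratio above 1 was reached by 38 of them (71.7%), against 70.1% of all listed genes, and a log2 ratio above 2 by 13 (24.5%), against 25.0%. At least a 1.5-fold ratio with the pseudocount was found for all 53, where 97.3% of the listed genes had it. The authors' call itself required a fold change of at least 1.5, so this count was largely fixed by that selection. Divided at the quartiles of all listed genes, the FAM-named genes numbered 12, 16, 12 and 13 from the lowest to the highest bin. As a group they thus lay close to the whole table, and the spread among them ran from 0.65 for *Fam168b* to 4.17 for *Fam184a*. By input level, their medians were 1.19 under 10 CPM, 1.43 from 10 to under 30 CPM and 1.37 from 30 CPM. All listed genes had 1.21, 1.52 and 1.56 at these levels.

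**Figure D1:**
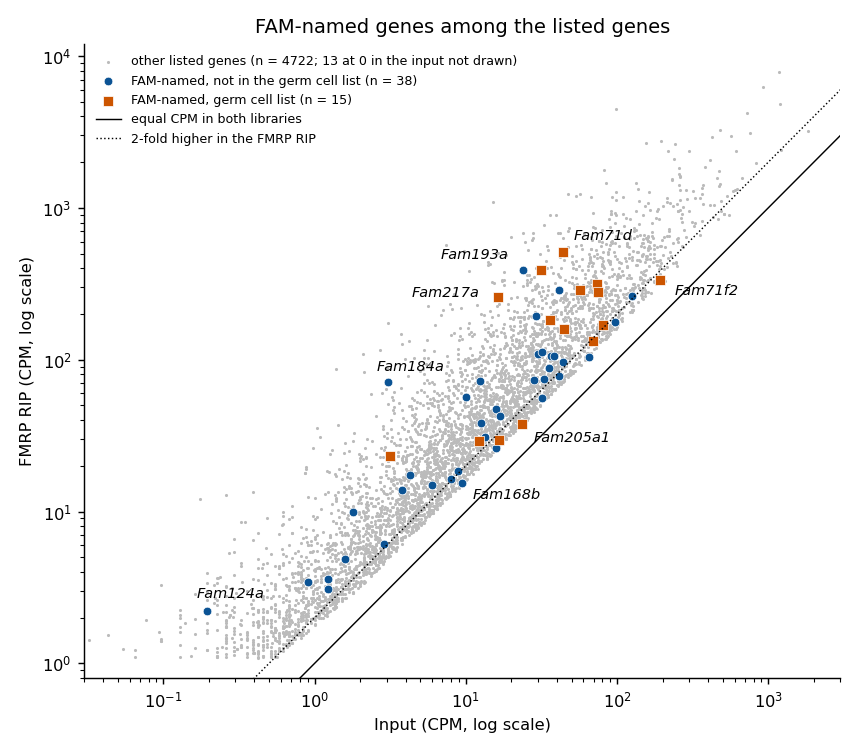
CPM in the input (x axis, log scale) against CPM in the FMRP RIP (y axis, log scale) for 53 FAM-named genes, with the 15 genes of the germ cell list as squares, over the other listed genes in grey; the lines mark equal CPM and a 2-fold difference. All points lie above the line of equal CPM because the table lists only genes called higher, and *Fam184a*, *Fam193a* and *Fam217a* lie farthest from it among the FAM-named genes.

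A list of 35 FAM genes known in germ cells or sperm was fixed by name, with earlier results of these data known. Of these, 15 were listed under a FAM name and 3 more under a newer symbol. The median log2 ratio of the 15 was 1.89, beside 1.35 over all listed genes. Of the 15, 11 (73.3%) were above 1, near the 70.1% of all listed genes, and 7 (46.7%) above 2, where all listed genes had 25.0%. The input levels differed too, with a median of 43.8 CPM for the 15 and 9.27 CPM over all listed genes. Listed genes at 30 CPM or more in the input had a median log2 ratio of 1.56, with 79.8% above 1 and 30.9% above 2. The other 38 FAM-named genes had a median of 1.24, with 27 (71.1%) above 1 and 6 (15.8%) above 2. Both groups reached down to similar values, 0.65 in each.

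The *Fam71* family had the most listed members, 6 of the 7 in the RefSeq annotation of GRCm38.p6. *Fam71e1* was not listed. *Fam71e2* (ENSMUSG00000092518, chromosome 7 from 4753226 to 4771302) had 31.3 CPM in the input library and 389 CPM after precipitation, a ratio of 12.4 (interval 11.6 to 13.3). *Fam71d* (ENSMUSG00000056987, chromosome 12 from 78691535 to 78734516) had 43.8 CPM and 510.3 CPM, a ratio of 11.7 (interval 11.0 to 12.3). These 2 intervals overlap, and both genes stood among the 5 highest FAM-named genes.

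*Fam71b* (chromosome 11 from 46396559 to 46407982) was intermediate, with 36.3 CPM in the input library and 183 CPM after precipitation, a ratio of 5.06 (interval 4.75 to 5.39). *Fam71f1*, which is needed for a normal acrosome and male fertility in mice, had 74.7 CPM and 280.1 CPM, a ratio of 3.75 (interval 3.58 to 3.92). Its neighbour *Fam71f2* lies 28.5 kb away on chromosome 6 and had the most input reads of all FAM-named genes. It had 193 CPM and 333 CPM, a ratio of 1.73 (interval 1.67 to 1.78). *Fam71a* had 69.2 CPM and 132 CPM, a ratio of 1.91 (interval 1.82 to 2.01).

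The family therefore covered nearly the whole range of the FAM-named genes, with log2 ratios of 3.59 for *Fam71e2*, 3.51 for *Fam71d*, 2.31 for *Fam71b*, 1.89 for *Fam71f1*, 0.93 for *Fam71a* and 0.78 for *Fam71f2*. The ratio of *Fam71e2* was 7.20 times that of *Fam71f2* (interval 6.69 to 7.74). The pair was picked as the ends of the family, so this size is a description. The spans of these 6 genes overlapped no other annotated gene, and their reads were whole numbers in both libraries.

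**Figure D2:**
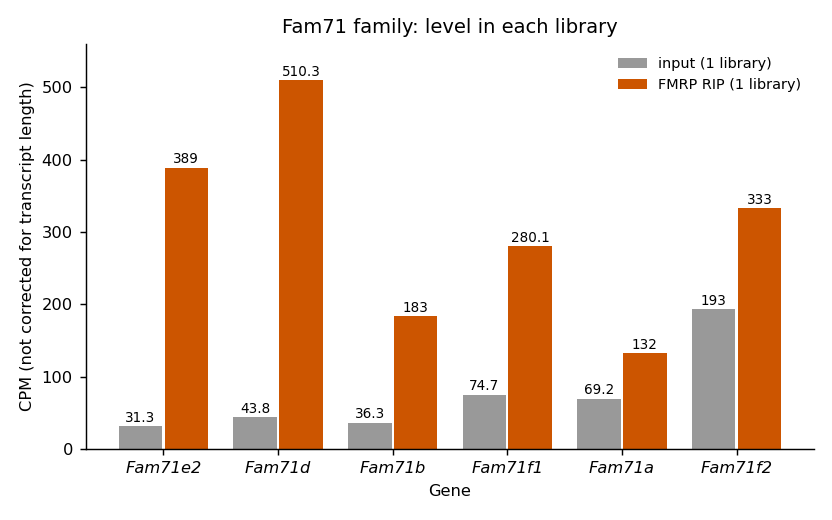
CPM (y axis, not corrected for transcript length) of the 6 listed *Fam71* genes in the input library (grey bars) and the FMRP RIP library (orange bars), with the value above each bar and 1 library per bar. *Fam71f2* has the highest input bar at 193 CPM and *Fam71d* the highest FMRP RIP bar at 510.3 CPM.

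The *Fam205* genes are related to the SPATA31 family of spermatid proteins. *Fam205c* (chromosome 4 from 42868004 to 42874234) had 73.5 CPM in the input library and 317 CPM after precipitation, a ratio of 4.31 (interval 4.12 to 4.51). *Fam205a1*, 14.1 kb away, had 23.7 CPM and 37.8 CPM, a ratio of 1.60 (interval 1.46 to 1.75). The ratios of these neighbours differed 2.70-fold (interval 2.44 to 2.99). The value of *Fam205a1* is uncertain, because its reads were fractions (730.36 input and 1381.18 precipitated reads), and the paralogs *Fam205a2*, *Fam205a3* and *Fam205a4*, which were not listed, are near copies that can share reads with it. The spans of both listed genes also overlap *4930578G10Rik*, and that of *Fam205c* overlaps *Phf24*.

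The remaining genes of the germ cell list were single or paired. *Fam217a*, a testis-enriched gene (ENSMUSG00000021414, chromosome 13 from 34909960 to 34924310), was the highest of the list, with 16.4 CPM in the input library and 257 CPM after precipitation, a ratio of 15.7 (interval 14.3 to 17.2). *Fam81b*, a gene of motile cilia, had 3.18 CPM and 23.1 CPM, a ratio of 7.28, and its 98 input reads gave a wide interval of 5.90 to 9.07. *Fam221b*, another gene enriched in testis, had 57.1 CPM and 289 CPM, a ratio of 5.06 (interval 4.81 to 5.33). Lower in the order, *Fam186b* had 44.9 CPM and 159.5 CPM, and its paralog *Fam186a* 12.2 CPM and 29.2 CPM, ratios of 3.55 and 2.40 with separate intervals (3.35 to 3.77 and 2.13 to 2.70). The lowest values of this set belonged to *Fam166a*, which encodes a protein of ciliary microtubules (80.3 CPM and 169 CPM, ratio 2.11), and to *Fam50b*, a retrogene copy of *Fam50a* (16.6 CPM and 29.5 CPM, ratio 1.77).

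Among 18 FAM genes of cilia, centrioles and spindle poles, 5 were listed under a FAM name. Their median log2 ratio was 1.34 and 4 (80%) were above 1, beside 1.35 and 70.1% over all listed genes. *Fam81b* and *Fam166a* are described above. *Fam161a*, whose protein sits at the ciliary base and is mutated in a form of retinitis pigmentosa, had 36.9 CPM in the input library and 106 CPM after precipitation, a ratio of 2.87 (interval 2.68 to 3.07). Its paralog *Fam161b* had 8.91 CPM and 18.5 CPM, a ratio of 2.07 (interval 1.80 to 2.39). *Fam149b*, a gene of the primary cilium linked to Joubert syndrome, had 28.4 CPM and 73.3 CPM, a ratio of 2.58 (interval 2.39 to 2.79). The centrosomal genes *Fam110a*, *Fam110b* and *Fam110c* were not listed.

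In an RNA list of 13 FAM genes, 3 were listed under a FAM name and each had a log2 ratio above 1. Over all listed genes, 70.1% had one. Another 3 genes of the list were present under a newer symbol. Their log2 ratios were 1.24 for *Tent5c*, 1.04 for *Tent5d* and 0.73 for *Tent5b*, so not every gene of the list was above 1. *Fam98a* had 29.8 CPM in the input library and 109 CPM after precipitation, a ratio of 3.65 (interval 3.40 to 3.93). *Fam120a*, an RNA-binding scaffold protein, had 12.6 CPM and 38.5 CPM, a ratio of 3.04 (interval 2.72 to 3.41). *Fam120b*, first described as a coactivator of the nuclear receptor PPARG, had 32.9 CPM and 74.6 CPM, a ratio of 2.27 (interval 2.11 to 2.44). The log2 ratios of *Fam98a*, *Fam120a* and *Fam120b* lay between 1.16 and 1.84, inside the middle range of the whole table.

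The *Fam160* genes encode the FHIP adaptors that link dynein to membrane cargo, and 3 of the 4 were listed. *Fam160b2* had 10.05 CPM in the input library and 56.5 CPM after precipitation, a ratio of 5.63 (interval 4.99 to 6.36). *Fam160b1* had 41.2 CPM and 77.8 CPM, a ratio of 1.89 (interval 1.77 to 2.02), so the ratio of *Fam160b2* was 2.98 times as high (interval 2.60 to 3.43). *Fam160a1* was low in both libraries, at 0.908 CPM and 3.43 CPM, and its 28 input reads left an interval of 2.49 to 5.91 around a ratio of 3.78. These were the only listed genes of a membrane traffic and organelle list of 22 FAM genes.

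In the signalling and secretory list, 6 of 37 genes were listed under a FAM name, 4 of them (66.7%) with a log2 ratio above 1. Over all listed genes the share was 70.1%. *Fam13c* was the highest, with 1.78 CPM in the input library and 9.92 CPM after precipitation, a ratio of 5.56 (interval 4.18 to 7.53). Its paralog *Fam13b* was the lowest, with 31.8 CPM and 56.3 CPM, a ratio of 1.77 (interval 1.64 to 1.91). *Fam20b*, a kinase that phosphorylates xylose in the linker of proteoglycans, had 32.0 CPM and 113 CPM, a ratio of 3.52, and *Fam20a*, a pseudokinase that activates the secretory kinase FAM20C, had 13.5 CPM and 30.8 CPM, a ratio of 2.29. *Fam83h*, an anchor of casein kinase 1, and *Fam53b*, a regulator of nuclear beta-catenin, had log2 ratios of 1.19 and 0.95.

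The highest values of all belonged to genes outside these lists. *Fam184a* (ENSMUSG00000019856, chromosome 10 from 53633145 to 53751123) had 94 input reads and 2622 FMRP RIP reads, that is, 3.05 CPM and 71.8 CPM, a ratio of 23.6 (interval 19.2 to 29.3). *Fam193a* (ENSMUSG00000037210, chromosome 5 from 34369933 to 34486456) had 24.0 CPM and 391 CPM, a ratio of 16.3 (interval 15.1 to 17.5). Ordered by log2 ratio, *Fam184a* ranked 50 and *Fam193a* 73 among the 4788 listed genes. *Fam217a* followed at rank 80, *Fam71e2* at 126 and *Fam71d* at 138. The next gene, *Fam243* at rank 442, had 41.2 CPM and 289 CPM, a ratio of 7.03 (interval 6.63 to 7.46).

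**Figure D3:**
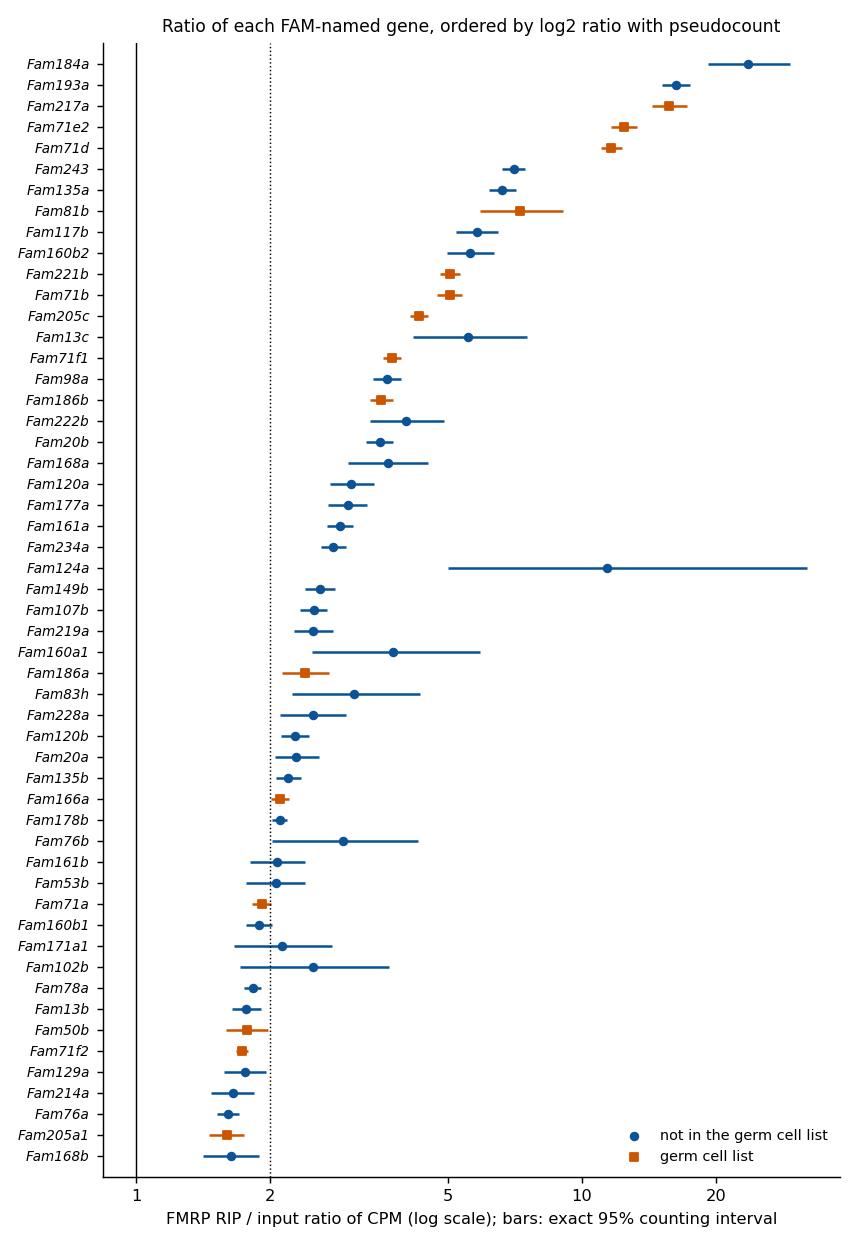
Ratio of FMRP RIP to input CPM (x axis, log scale) for each of the 53 FAM-named genes, ordered from top to bottom by the log2 ratio with the pseudocount; points are ratios of 1 library each, bars the exact 95% counting interval, squares the germ cell list, and the dotted line marks 2-fold. The interval of 38 genes lies wholly above 2-fold, a count for which the share of all listed genes was not computed. *Fam124a* has the widest interval on 6 input reads.

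At the other end stood *Fam168b*, with 9.47 CPM in the input library and 15.4 CPM after precipitation, a ratio of 1.63 (interval 1.41 to 1.88). *Fam205a1* came next, then *Fam76a* with 64.8 CPM and 104 CPM, *Fam214a* with 15.8 CPM and 26.0 CPM, and *Fam129a*, whose product Niban takes part in stress responses, with 16.6 CPM and 29.2 CPM. The ratios of these last 3 were 1.61, 1.65 and 1.76. The counting interval reached below 1.5-fold for 3 of the 53 genes (*Fam168b*, *Fam205a1* and *Fam214a*) and below 1 for none. Both counts were largely fixed by the authors' call at 1.5-fold, and the shares of all listed genes were not computed. Around a log2 ratio of 1, the nearest genes were *Fam76b* above (1.04) and *Fam161b* below (0.97).

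Of the other genes with many input reads, *Fam178b* had 125 CPM and 262 CPM, a ratio of 2.10 (interval 2.02 to 2.18), and *Fam78a* 96.4 CPM and 176 CPM, a ratio of 1.83 (interval 1.75 to 1.91). The span of *Fam78a* overlaps *Nup214*, that of *Fam166a* overlaps *Tubb4b* and that of *Fam186b* overlaps *Prpf40b*. Whether counting used the strand is not given in the sources used here, and without strand the reads of such genes cannot be told apart. In all, the spans of 29 FAM-named genes overlapped another annotated gene. The 24 that overlapped none had a median log2 ratio of 1.46, with 16 (66.7%) above 1, beside 1.35 and 70.1% over all listed genes.

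The 17 genes that were in no list and had no listed paralog included *Fam184a*, *Fam193a* and *Fam243*. Their log2 ratios ran from 0.69 to 4.17, and 12 were above 1, where 70.1% of all listed genes were. *Fam117b* had 12.5 CPM and 72.5 CPM, a ratio of 5.81 (interval 5.22 to 6.48), and *Fam222b* 4.28 CPM and 17.3 CPM, a ratio of 4.04 (interval 3.34 to 4.91). *Fam124a* showed how few reads limit a value. It had 6 input reads and 81 FMRP RIP reads, a ratio of 11.4 with an interval of 5.02 to 32.0, while its log2 ratio with the pseudocount was only 1.43. *Fam177a*, *Fam234a*, *Fam107b*, *Fam219a* and *Fam228a* lay between 1.19 and 1.52 on that scale.

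Of the FAM numbers, 11 had several listed members, 27 genes in all, which allowed paralogs to be set side by side. Every listed member had a log2 ratio above 1 in 4 of these 11 families (*Fam20*, *Fam120*, *Fam135* and *Fam186*), and in the other 7 the members lay on both sides of 1. Of all listed genes, 70.1% were above 1. Groups of unrelated genes were not compared, so these counts show nothing particular to paralogs. The family of *Fam135* spread widely. *Fam135a* had 29.3 CPM in the input library and 194 CPM after precipitation, a ratio of 6.62 (interval 6.18 to 7.11), whereas *Fam135b* had 43.8 CPM and 96.2 CPM, a ratio of 2.20 (interval 2.06 to 2.34). *Fam168a*, with 3.79 CPM and 13.9 CPM, had a ratio of 3.67, which was 2.25 times that of *Fam168b* (interval 1.75 to 2.91). The smallest spread on the log2 scale was that of *Fam76*, 0.36 between *Fam76b* and *Fam76a*.

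Setting the highest against the lowest member, the interval of the ratio of ratios lay above 1 in all 11 families, from 1.34-fold in *Fam120* (interval 1.17 to 1.54) to the 7.20-fold of *Fam71*. The order within a pair was taken from the values, and pairs of unrelated genes were not compared. The count of 11 therefore shows nothing particular to paralogs. The intervals also leave out the spread between libraries, which 1 library per group cannot give. Within the *Fam76* pair, the plain ratios of 2.91 and 1.61 stand farther apart than the values with the pseudocount, since *Fam76b* had only 1.23 CPM in the input.

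**Figure D4:**
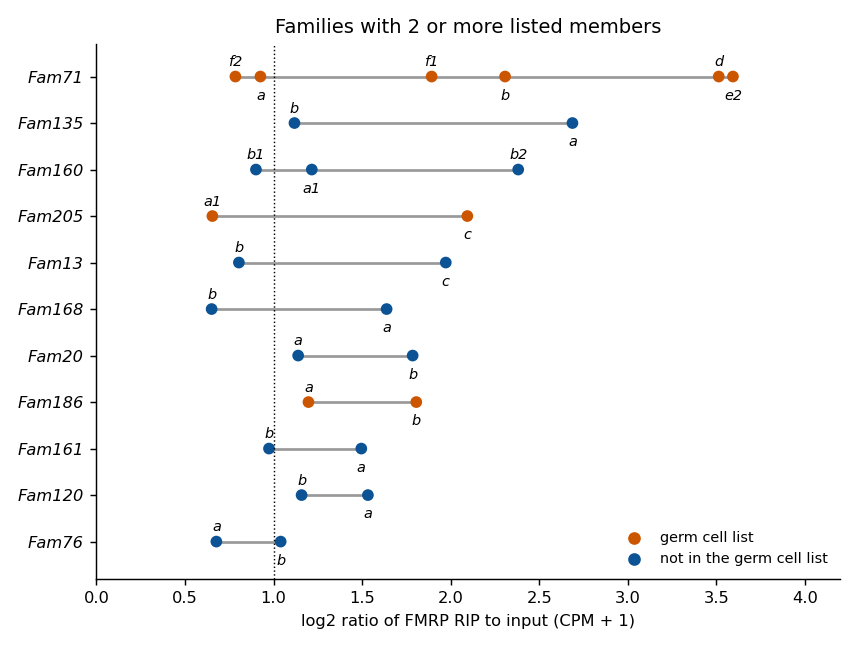
log2 ratio of FMRP RIP to input (CPM + 1; x axis) for the 27 genes of the 11 families with several listed members (y axis); each point is 1 gene, the letters beside it complete its symbol after the family name, and grey lines join paralogs. *Fam71* spans 2.81 on the log2 scale, from *f2* to *e2*, and *Fam76* spans 0.36.

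Seen against the annotation, 52 of 175 protein-coding genes with a FAM symbol in RefSeq were listed by that symbol (29.7%), and *Fam129a*, the remaining FAM-named gene, is annotated there under a newer symbol. Over all protein-coding genes, expressed in testis or not, 21.3% were listed. Expression of the genes outside the table was not analysed here. The FAM-named genes lay on 18 chromosomes, with 7 on chromosome 1 and none on X or Y. Their median gene span, from start to end of the gene, was 35.3 kb, beside 47.5 kb over all listed genes. Across the 53 genes, the log2 ratio showed almost no rank relation with input CPM (Spearman's rho -0.02) or with span (rho 0.01), and genes are not independent replicates. Over all 4788 listed genes the same measures gave 0.25 and 0.16.

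**Figure D5:**
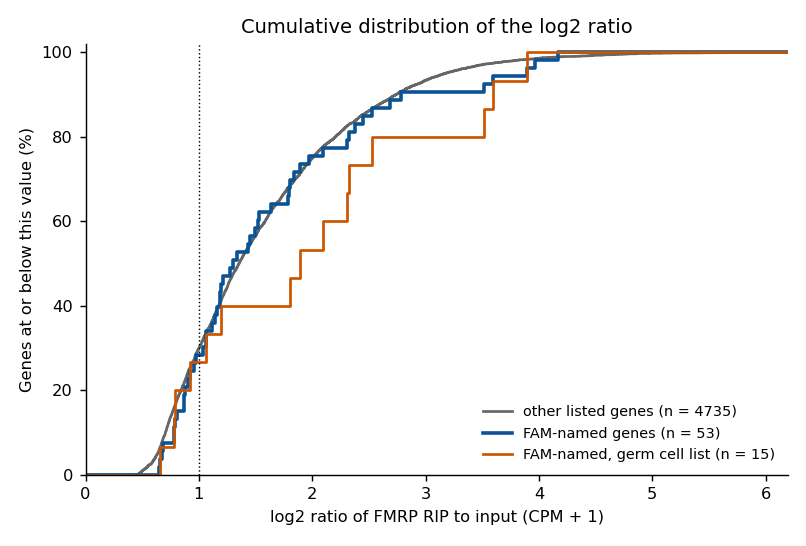
Cumulative share of genes (y axis, percent) at or below a log2 ratio of FMRP RIP to input (CPM + 1; x axis) for the 53 FAM-named genes, the 15 of them in the germ cell list and the other 4735 listed genes; the dotted line marks a log2 ratio of 1. The line of the FAM-named genes follows that of the other listed genes, and the germ cell list lies to the right of both over the middle of the range, with a median of 1.89.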

How the data were processed

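The authors deposited CPM values per gene for 1 input and 1 FMRP RIP library of mouse testis, aligned with STAR to GRCm38 (mm10) per the labels. Versions and the counting tool are not given in the sources used here. Their table was filtered with edgeR to protein-coding genes higher in the FMRP RIP, and its columns of fold changes, p-values and calls were not used. Library totals came from the step between CPM values, which were multiples of 0.01 read to within 0.00185 read. Of values above 0, 78.4% (input) and 78.8% (FMRP RIP) were whole reads within 0.005 read, so no count test was run.

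The log2 ratio used a pseudocount of 1 CPM, with counting intervals from rounded reads at 95% confidence. Intervals of a ratio between paralogs were exact conditional odds ratio intervals. Symbols, synonyms and spans came from RefSeq (GRCm38.p6), which matched 52 genes by symbol and 1 by synonym. The genes named were those of the germ cell, cilium and RNA lists, the 5 highest and lowest log2 ratios, the 5 highest input CPM, families with several listed genes, and the extremes of the other lists. Others named were chosen after their values were seen. The FAM-named genes and lists were chosen with earlier results of these data known. Functions were tested on simulated libraries. Software was matplotlib 3.10.9, scipy 1.17.1, pandas 2.3.3 and numpy 2.4.6 under Python 3.11.15.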

Additional observations from a re-analysis of the deposited data

How the results depend on the processing

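Of the FAM-named genes, 38 had a log2 ratio above 1. The count changed to 31 when 5 CPM were added in place of 1 CPM, and to 42 with 1 CPM divided by 8 or none. It was 36 of 51 with at least 1 CPM in both libraries, 53 when scaled to all reads not on listed genes, a factor of 1.92 on the FMRP RIP, and again 38 when the lower limit of the counting interval had to lie above 2-fold. For these settings the share of all listed genes was not computed, so the counts show the effect of processing and nothing particular to the FAM-named genes. With 36 genes added that carried a FAM name earlier, it was 62 of 89, and the count at 1.5-fold was 86 of 89 beside 53 of 53. With 5 CPM added, 45 of the 53 (84.9%) reached 1.5-fold. All counts at 1.5-fold were largely fixed by the authors' call, which used that limit. Keeping only the 24 genes that overlap no other gene span gave 16 above 1, 24 at 1.5-fold and 5 of 8 in the germ cell list, beside 11 of 15. Fewer genes were counted there, and the shares above 1 were also lower, 66.7% beside 71.7% and 62.5% beside 73.3% in the germ cell list, the cause of which was not tested. The median log2 ratio of 1.30 was 1.11 with 5 CPM added, 1.47 with 1 CPM divided by 8, 1.52 with none, 2.19 when scaled to other reads, 1.43 for the 43 genes with whole reads and 1.46 for the 24 without overlap. The selections by whole reads and by overlap were chosen after seeing the data. Of 212 values of single genes, 88 differed from the 1 CPM value by more than the longer side of the counting interval on the log2 scale. Of these, 52 did so with the scaling. This compares the size of a shift with the interval and does not say that a value lay outside it. *Fam184a*, *Fam193a*, *Fam217a*, *Fam71e2* and *Fam71d* were the 5 highest with 1 CPM, 5 CPM or nothing added, and *Fam184a* was the last of them only with 5 CPM. Among the 5 lowest, *Fam168b* alone was found at 1 CPM, 5 CPM and none. No direction could change, since the table lists only genes called higher. No paired analysis was possible because there is just 1 library in each group. Depth limits genes with few input reads, such as *Fam124a* with 6.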

Other observations

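Renamed genes widen the picture of the sequence similarity families. In the RefSeq annotation, 36 listed genes carry another symbol now and had a FAM name earlier. Their median log2 ratio was 1.51, with 24 (66.7%) above 1, beside 1.35 and 70.1% over all listed genes. The 5 *Spata31* genes on chromosome 13 (earlier *Fam75*), which encode spermatid proteins, all had log2 ratios above 1, as did 70.1% of all listed genes. *Spata31* had 17.9 CPM in the input library and 308 CPM after precipitation, a ratio of 17.2 (interval 15.8 to 18.8). The ratio was 12.3 for *Spata31d1a*, 9.76 for *Spata31d1c*, 6.79 for *Spata31d1d* and 2.10 for *Spata31d1b*, and *Spata31d1a* and *Spata31d1b* had fractions of reads. Genes of this cluster are close in sequence, so how reads were divided among them is uncertain.

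Among the renamed genes were poly(A) polymerases earlier named *Fam46*. *Tent5c*, needed to hold the sperm head to its tail, had 440.3 CPM in the input library and 1044 CPM after precipitation, a ratio of 2.37 (interval 2.32 to 2.42). *Tent5d* had 6.97 CPM and 15.4 CPM, a ratio of 2.20 (interval 1.88 to 2.59), and *Tent5b* 27.9 CPM and 47.1 CPM, a ratio of 1.69 (interval 1.55 to 1.83). Of the chromatin and DNA repair list, no gene was listed under a FAM name and 4 of 12 under a newer symbol. *Slf2*, which acts with the SMC5/6 complex, had a ratio of 10.7 (interval 9.41 to 12.3), *Tasor2* 4.04, *Abraxas2* 3.42 and *Tasor*, a core subunit of the HUSH silencing complex, 1.67. Of genes of ciliary microtubules, *Togaram1* had a ratio of 7.49 (interval 6.996 to 8.02) and *Saxo1* 3.28 (interval 3.03 to 3.56).

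Among the rows with no FAM symbol, *CR974586.1* and *AC087559.3*, on scaffolds outside the chromosomes, are described as similar to a FAM205A protein. *CR974586.1* was listed at 0 in the input and had 9.40 CPM in the FMRP RIP. With the floor of 3 input reads put in place of 0, this was 96.7-fold higher, a value set by the floor and not a lower limit. *AC087559.3* had 0.219 CPM and 2.68 CPM, a ratio of 12.2 with an interval of 5.53 to 30.2. Both had fractions of reads, as did *Fam205a1*, and whether the copies exchanged reads was not tested.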
